A study of Mus musculus with 6 samples.

Results

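Expression of the respiratory chain genes was compared in cultured smooth muscle cells of the mouse pulmonary artery (mPASMCs) between cells with and without knockdown of the long noncoding RNA *Snhg18*. The members were the protein-coding genes whose symbols begin with Nduf, Uqcr, Cox4 to Cox8, Cox10 to Cox19, Coa followed by a digit, or Atp5, together with *Sdha* to *Sdhd* and *Cyc1*. This rule found 110 of the 55487 genes listed, and 105 of them had enough reads to be tested. The members divide into 37 subunits and 8 assembly factors of complex I, 4 subunits of complex II, 9 of complex III, 21 subunits and 13 assembly factors of complex IV, and 18 genes of complex V. Counted among the subunits are *Ndufb1-ps* for complex I, and *Cox5b-ps*, *Cox7a2l* and the subunit relative *Ndufa4l2* for complex IV. The rule uses gene names and no measured value, though it was written with earlier results of these data known.

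The cells were mPASMCs from a commercial supplier, used at low passage and transfected with a control siRNA (si-NC) or with an siRNA against *Snhg18* (si-*Snhg18*), with 3 RNA-seq libraries in each group. Both groups received an siRNA with a lipid reagent, and the labels give the genotypes as Control and *Snhg18* knockdown. The mouse strain and age, the oxygen level of the sequenced cells and the time after transfection are not given in the sources used here. Nothing states whether the libraries of a group came from separate cultures, so p-values measure the spread between these libraries, which may be technical.

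The respiratory chain passes electrons from NADH and succinate through complexes I and II to ubiquinone, then through complex III and cytochrome c to complex IV, which reduces oxygen to water. Complexes I, III and IV pump protons across the inner mitochondrial membrane, and complex V, the ATP synthase, uses the gradient to make ATP. Most subunits are encoded in the nucleus, while the mitochondrial genome encodes a small core of complexes I, III, IV and V. Assembly factors insert copper, haem or iron-sulphur clusters, or hold intermediates together, and are not part of the finished enzyme. In pulmonary artery smooth muscle, mitochondria also take part in the sensing of oxygen, and several complex IV subunits have paired isoforms that differ between tissues or with the oxygen supply.

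The libraries held between 18097718 and 25988746 counted reads, and si-*Snhg18* 3 was the shallowest. Levels are given as CPM, the reads of a gene scaled to the total of its library with TMM factors, or, between genes, as RPKM, which divides the CPM by the exon length in kilobases. *Snhg18* itself measured 23.5, 22.4 and 22.2 CPM in si-NC 1 to 3 and 10.6, 11.2 and 9.97 CPM in si-*Snhg18* 1 to 3, a log2 fold change of -1.10 (SE 0.0985, edgeR adjusted p = 0.00727). Smooth muscle markers were abundant, with a summed level of 1750 to 1896 CPM in si-NC and 1202 to 1851 CPM in si-*Snhg18*, and 1 of 8 (*Tagln*, lower) passed the edgeR test. With the replicate number as a block, a fit described below, 4 of the 8 passed (*Tagln*, *Cnn1*, *Myh11* and *Des*), all lower, and DESeq2 called 3. For these and the marker counts that follow, the shares over all genes were 7.36% in edgeR, 27.2% with the block and 13.7% in DESeq2. Of the lists for other cell types, leukocyte markers summed to 113.1 to 157.1 CPM in si-NC and 72.01 to 112.5 CPM in si-*Snhg18*, where 1 of 4 tested genes (*Cd53*, lower) passed, and with the block also *Cd14*, higher. Epithelial markers summed to 79.78 to 88.33 and 46.29 to 55.48 CPM, with 0 of 2 tested genes called by edgeR, 1 at an unadjusted p under 0.05, 1 called by DESeq2, and both lower with the block. Fibroblast markers ranged from 4579 to 5972 CPM in si-NC and from 2867 to 4679 CPM in si-*Snhg18*. Of these 6 genes edgeR called 0, with 1 at an unadjusted p under 0.05 and 0 by DESeq2, and with the block *Pdgfra*, *Col1a1* and *Col1a2* passed as lower. Endothelial markers stayed between 12.52 and 15.4 CPM over all libraries, and skeletal or cardiac muscle markers between 3.144 and 8.27 CPM, and each list had 1 gene called with the block (*Tek*, lower, and *Tnnt2*, higher). *Ptprc*, the pan-leukocyte marker, had too few reads to be tested. The part of these lists in the results below was not tested, and in bulk RNA fewer cells of a type and less RNA per cell cannot be told apart.

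As a group, the respiratory chain genes stayed close to their control level. All members together summed to 6144 ± 123 CPM (SD, n = 3) in si-NC and 6217 ± 219 CPM in si-*Snhg18*. The median log2 fold change over the 105 tested members was 0.02, beside 0.01 over all 14531 tested genes, with 55 members above 0 and 50 below. The median absolute log2 fold change was 0.118 for the members and 0.246 for all tested genes. For 84 of the 105 members (80.0%) the 95% confidence interval of the change lay inside 1.5-fold in either direction, beside 40.2% of all tested genes. The median standard error was 0.0992 for the members and 0.17 for all tested genes.

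Of the 105 tested members, 2 passed the edgeR test at an adjusted p under 0.05, beside 7.36% of all tested genes (3.65% higher, 3.71% lower). Both fell. They were *Ndufa4l2*, a hypoxia-induced relative of a complex IV subunit, and *Coa5*, an assembly factor of complex IV. Without si-NC 1, si-NC 3 or si-*Snhg18* 3, edgeR called 0 of all genes, with 8 to 10 members at an unadjusted p under 0.05 (DESeq2 was not run without them), and the adjusted p of *Ndufa4l2* then reached 0.0889 and that of *Coa5* 0.07, so that every edgeR call given here without the block, *Snhg18* and the markers included, is lost when any of these libraries is left out. No member rose past the threshold, while 16 members had an unadjusted p under 0.05 (7 higher, 9 lower), beside 24.9% of all tested genes. Values of the groups did not overlap for 29 members (27.6%), beside 30.9% of all tested genes. Of these 15 were higher and 14 lower, beside 15.4% and 15.5% of all tested genes.

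With the replicate number as a block, which compares each si-*Snhg18* library with the si-NC library of the same number, 10 members passed (9.52%), beside 27.2% of all tested genes (13.6% higher and 13.6% lower). *Ndufb2*, *Ndufb8* and *Uqcr10* were higher and *Ndufa4l2*, *Coa5*, *Cox4i2*, *Uqcrc2*, *Atp5j*, *Cox15* and *Ndufa9* were lower. In both fits the share of members called was below the share over all genes.

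**Figure D1:**
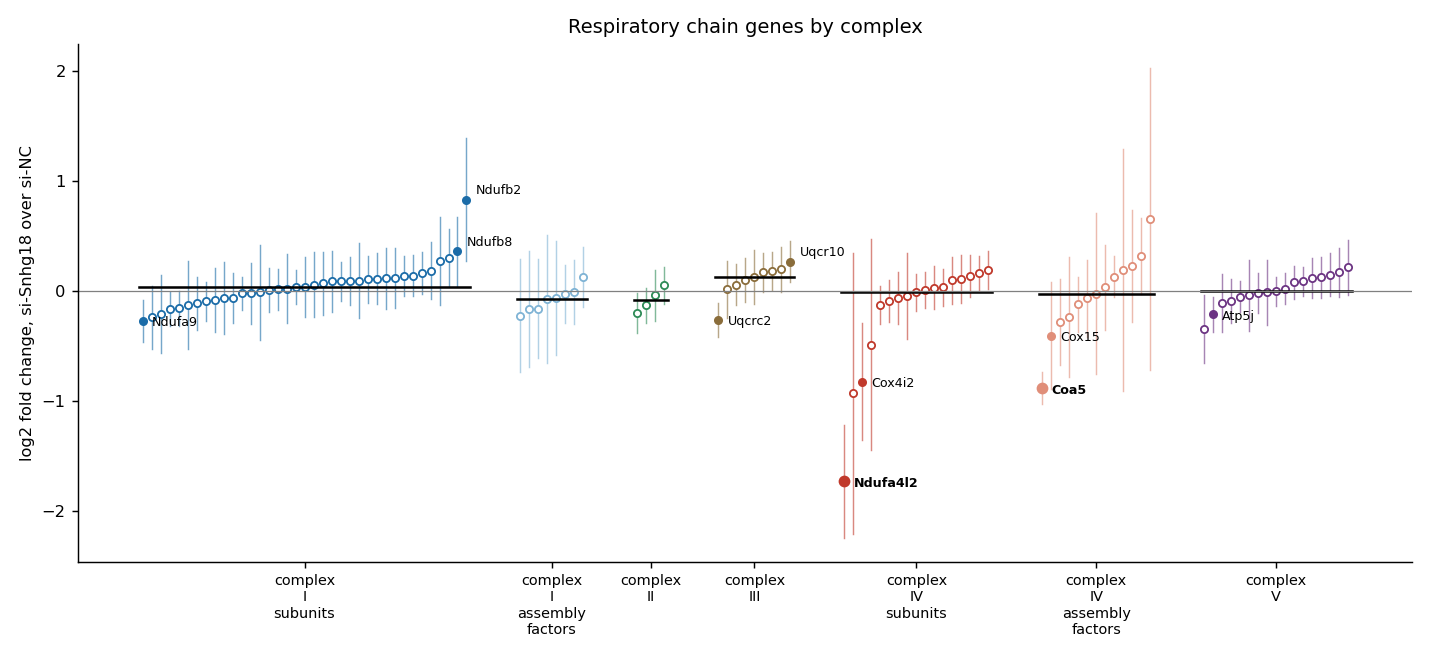
The log2 fold change of each tested member (si-*Snhg18* over si-NC, points, with 95% confidence intervals as vertical lines) is drawn within its complex in order of size, with the median of each class as a black bar. Large filled points with bold names passed the test without the block, small filled points with the block alone, and most open points lie within 0.3 of 0, while *Ndufa4l2* and *Coa5* stand below their classes.

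*Ndufa4l2* (ENSMUSG00000040280) lies on the plus strand of chromosome 10 from 127514967 to 127517154 in GRCm38. It encodes a relative of Ndufa4 that is induced by hypoxia-inducible factor and is known to lower electron flow in the respiratory chain. The libraries si-NC 1 to 3 held 1641, 2486 and 1833 reads of it, and si-*Snhg18* 1 to 3 held 505, 832 and 425. After scaling these were 70.8, 101.5 and 77.7 CPM against 20.0, 32.0 and 23.3 CPM. The lowest control library was thus above the highest knockdown library, and library 2 was the highest in both groups. The mean fell from 83.3 ± 16.1 to 25.1 ± 6.20 CPM (SD, n = 3), a log2 fold change of -1.73 (SE 0.215, edgeR adjusted p = 0.0119), which leaves 30.1% of the control level. The largest possible separation of 3 against 3 libraries gives a two-sided exact permutation p of 0.1, and its 6 CPM values reached it.

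The parent gene *Ndufa4*, first assigned to complex I and now counted with complex IV, did not follow. It measured 56.2, 52.6 and 49.3 CPM in si-NC and 52.1, 56.8 and 52.8 CPM in si-*Snhg18*, and the groups overlapped. Its log2 fold change was 0.03, with a 95% confidence interval from -0.16 to 0.23. Per kilobase of exon, the level of *Ndufa4l2* in si-NC (89.2 ± 17.2 RPKM) was next to that of *Ndufa4* (86.4 ± 5.65 RPKM) and differed from it by less than the spread between libraries. That spread does not measure error in the deposited exon lengths, 934 bases for *Ndufa4l2* and 610 for *Ndufa4*. The annotated transcripts held 1165 and 1532 different 75-base stretches, so how the 2 genes compare depends on the lengths used. In si-*Snhg18* the levels were 26.9 RPKM for *Ndufa4l2* and 88.3 RPKM for *Ndufa4*. Among the reads of both genes, *Ndufa4l2* took 55.8, 65.9 and 61.2% in si-NC 1 to 3 and 27.7, 36.0 and 30.6% in si-*Snhg18* 1 to 3. This share does not depend on how a library is scaled, and its means were 60.9% ± 5.05 and 31.5% ± 4.21 (SD, n = 3), with no overlap between the groups. The exact permutation test of the log2 ratio gave p = 0.1, the smallest possible, and an adjusted p of 0.3 over the 6 isoform pairs tested.

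The last 32 bases of the *Ndufa4l2* gene overlap the end of *Shmt2*, which lies on the opposite strand and encodes mitochondrial serine hydroxymethyltransferase. The log2 fold change of *Shmt2* was -0.10 (adjusted p = 0.461), and no stretch of 75 bases of *Ndufa4l2* recurs in another annotated transcript. *Nxph4*, on the minus strand 8319 bp away, fell by 0.66 on the log2 scale (adjusted p = 0.0185), while *Stac3*, 6144 bp away, did not pass (adjusted p = 0.505).

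*Coa5* (ENSMUSG00000026112) is a minus-strand gene that spans bases 37417084 to 37430103 of chromosome 1. It encodes a small protein of the intermembrane space that is needed for an early step in building complex IV. The libraries si-NC 1 to 3 held 2523, 2751 and 2672 reads and si-*Snhg18* 1 to 3 held 1500, 1622 and 1083. The scaled levels were 108.9, 112.3 and 113.2 CPM in si-NC and 59.4, 62.4 and 59.3 CPM in si-*Snhg18*. The libraries within a group lay close together and the groups were far apart. The mean fell from 111.5 ± 2.27 to 60.4 ± 1.74 CPM (SD, n = 3), a log2 fold change of -0.89 (SE 0.0606, 95% confidence interval -1.03 to -0.74, edgeR adjusted p = 0.00498), which leaves 54.1% of the control level. No 75-base stretch of *Coa5* recurs in another annotated transcript.

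*Coa5* was the most counted of the 13 complex IV assembly factors, so that its fall carried over to the sum of the class. It made up 37.6, 41.0 and 40.3% of the reads of these factors in si-NC 1 to 3 and 25.4, 27.7 and 25.9% in si-*Snhg18* 1 to 3. The summed level of the factors was 281.5 ± 7.95 CPM in si-NC and 229.4 ± 4.62 CPM in si-*Snhg18*. Without *Coa5* the sums were 170 ± 9.84 and 169.1 ± 6.20 CPM, and the libraries of the groups overlapped.

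*Coa5* shares its start region with *Unc50*, which runs the other way and begins 36 bp from it. *Unc50* had a log2 fold change of -0.27 (adjusted p = 0.131), and passed with the replicate block (adjusted p = 0.0484). The 250 bases before the *Coa5* start, taken from the RefSeq promoter table (GRCm38.p6, minus strand, chr1:37430104-37430353) and shown because the start of this gene is shared, read from 5′ to 3′ as follows, with the single match to the NRF1 motif (GCGCANGCG on either strand) in capitals. NRF1 is a transcription factor known for its role at nuclear genes of the respiratory chain.
Coa5: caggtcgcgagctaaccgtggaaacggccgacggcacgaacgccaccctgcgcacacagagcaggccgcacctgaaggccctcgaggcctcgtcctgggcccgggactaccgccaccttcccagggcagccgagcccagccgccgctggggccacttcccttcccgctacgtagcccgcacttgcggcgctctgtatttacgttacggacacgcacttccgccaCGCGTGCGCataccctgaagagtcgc
The match begins 26 bases before the start, and the far end of the window lies inside *Unc50*. A match describes letters in this window and is not evidence of binding.

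Complex IV reduces oxygen, and several of its nuclear subunits come as pairs of isoforms. *Cox4i2* (chromosome 2, 152754173 to 152765037, plus strand) encodes the isoform known from lung and from cells at low oxygen, and *Cox4i1* the common isoform. *Cox4i2* measured 10.4, 9.43 and 9.66 CPM in si-NC and 7.16, 4.04 and 5.48 CPM in si-*Snhg18*, and the groups did not overlap. The mean was 9.85 ± 0.532 in si-NC and 5.56 ± 1.56 CPM in si-*Snhg18* (SD, n = 3), a log2 fold change of -0.82 (SE 0.222, edgeR adjusted p = 0.0788). It passed with the replicate block (adjusted p = 0.0107) and in DESeq2 (adjusted p = 0.0135). *Cox4i1* measured 210.2, 192.5 and 219.3 CPM against 241.9, 202.1 and 227.5 CPM, with overlap and a log2 fold change of 0.11 (adjusted p = 0.498). *Cox4i2* took 4.73, 4.67 and 4.22% of the reads of this pair in si-NC and 2.88, 1.96 and 2.35% in si-*Snhg18* (exact permutation p = 0.1, adjusted p = 0.3 over 6 pairs). It was therefore the minor isoform in every library, and its share was lower in the knockdown libraries.

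The other isoform pairs gave no separation. *Cox7a1*, the muscle isoform, was near the limit of testing at 0.577 ± 0.0766 CPM in si-NC and 0.405 ± 0.168 CPM in si-*Snhg18*, beside 29.1 ± 0.862 and 27.3 ± 1.09 CPM for *Cox7a2*, and its share of the pair gave an exact permutation p of 0.3. *Cox6b2*, known from testis, measured 1.04, 2.25 and 0.932 CPM in si-NC and 0.633, 1.15 and 0.384 CPM in si-*Snhg18*, so the groups overlapped, library 2 was high in both, and si-*Snhg18* was lower in each pair (exact permutation p of its share 0.3). Its partner *Cox6b1* measured 70.7 ± 3.66 and 72.5 ± 2.39 CPM. The 3 genes for the c subunit of ATP synthase, *Atp5g1*, *Atp5g2* and *Atp5g3*, encode the same mature protein. *Atp5g1* took 38.4% of the reads of itself and *Atp5g2* in both groups (SD 3.09 and 4.06), and *Atp5g3* took 62.9% ± 2.95 and 61.5% ± 5.32 of the reads of itself and *Atp5g2* (exact permutation p of 1 and 0.7).

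Isoforms known from striated muscle or testis were at or near 0. *Cox8b* and *Cox8c*, and also the second entry for *Atp5o* (ENSMUSG00000116933) had no read in any library. *Cox6a2*, the heart and skeletal muscle isoform, had 2 reads in si-*Snhg18* 2 and none elsewhere, and *Cox7b2* had 1 read in that library. These 5 members were not tested. A count of 0 in a library allows a level of up to 0.115 to 0.164 CPM, which covers counting error only.

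**Figure D2:**
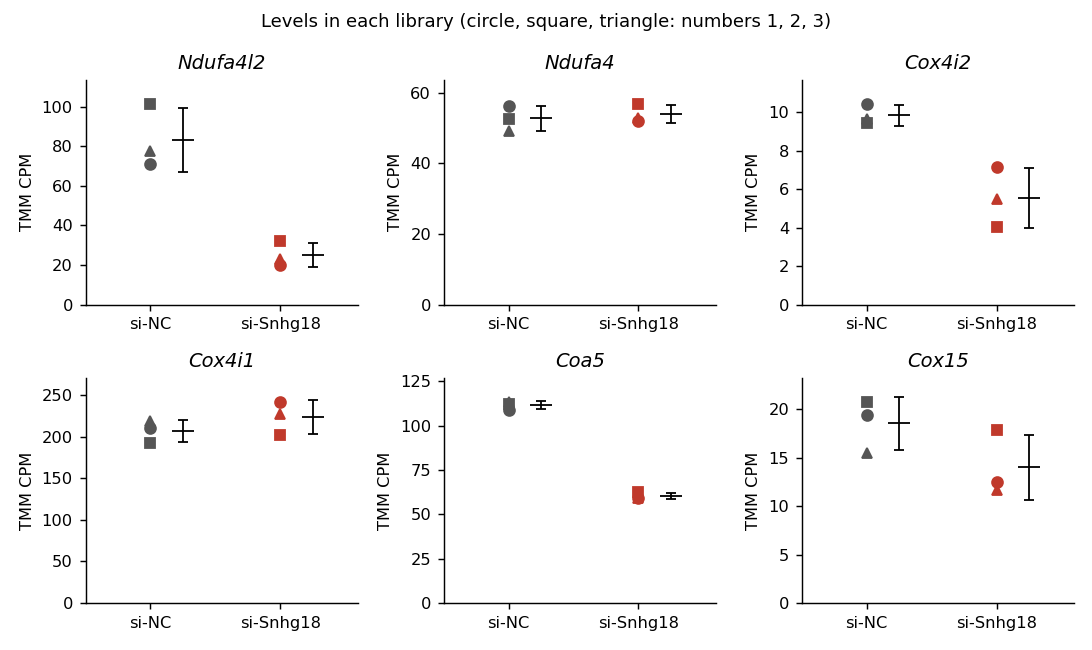
Levels in TMM CPM from 0 upward are drawn for 6 complex IV members in each library (grey si-NC, red si-*Snhg18*), with the shape giving the replicate number and the black bars the mean and SD. *Ndufa4l2*, *Cox4i2* and *Coa5* separate the groups, while *Ndufa4*, *Cox4i1* and *Cox15* overlap between them.

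Among complex IV assembly factors, *Cox15*, which takes part in making haem A, measured 19.4, 20.7 and 15.5 CPM in si-NC and 12.5, 17.9 and 11.6 CPM in si-*Snhg18*. The groups overlapped because si-*Snhg18* 2 was above si-NC 3. The log2 fold change was -0.40 (SE 0.203, adjusted p = 0.276), and it passed with the block (adjusted p = 0.0359). *Cox19*, a copper-binding factor, ran from 22.6 to 37.8 CPM in si-NC and from 19.9 to 42.1 CPM in si-*Snhg18*, with library 2 the lowest in both groups. It had the highest level per kilobase in the class, a rank that rests on its deposited exon length of 475 bases. The annotated *Cox19* transcripts held 3949 different 75-base stretches. The log2 fold change of *Cox19* was -0.02, with a wide 95% confidence interval from -0.76 to 0.71. The median log2 fold change of the 13 factors was -0.02, and 4 of them had an interval inside 1.5-fold, so that most single factors of this class were less precisely measured than the subunits.

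The 17 tested subunits of complex IV had a median log2 fold change of -0.01. Their sum was 1142 ± 10.1 CPM in si-NC and 1131 ± 30.8 CPM in si-*Snhg18*, and 1059 ± 26.1 and 1106 ± 36.3 CPM without *Ndufa4l2*, where si-*Snhg18* was higher in each of the 3 pairs. *Cox6a1*, the common isoform of its pair, measured 152.5, 145.9 and 159.1 CPM against 185.6, 167.6 and 169.9 CPM. These groups did not overlap, and the log2 fold change of 0.19 did not pass (adjusted p = 0.16, with the block 0.0529). *Cox8a*, the common isoform of subunit VIII, had a log2 fold change of 0.13 (adjusted p = 0.345).

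Complex I, the NADH dehydrogenase and the largest complex of the chain, showed no called gene among 37 tested subunits by edgeR or DESeq2, with 5 at an unadjusted p under 0.05 (3 higher, 2 lower). The median log2 fold change was 0.04, and the summed level was 1290 ± 29.3 CPM in si-NC and 1307 ± 58.4 CPM in si-*Snhg18*. For 34 of the 37 the confidence interval lay inside 1.5-fold.

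With the replicate block, 3 complex I subunits passed, all of them accessory subunits. *Ndufb8* measured 30.6, 25.4 and 34.2 CPM in si-NC and 41.5, 35.1 and 39.3 CPM in si-*Snhg18*, and was higher by 0.37 on the log2 scale (adjusted p = 0.0199 with the block, 0.155 without). *Ndufa9* measured 38.8, 38.5 and 40.0 CPM in si-NC and 34.3, 32.1 and 30.7 CPM in si-*Snhg18*, and was lower (log2 fold change with the block -0.27, adjusted p = 0.043 with the block and 0.0932 without). Neither gene had overlapping groups. *Ndufb2* had 41, 30 and 34 reads in si-NC and 70, 65 and 48 in si-*Snhg18*, which gave 1.48 ± 0.274 and 2.63 ± 0.135 CPM and a log2 fold change with the block of 0.84 (adjusted p = 0.0433, and 0.0864 without). At 0.338 RPKM in si-NC it was the lowest of all tested members per kilobase. Its model overlaps another gene on the same strand, Gm42420, over 4022 bases, and Gm42420 had no read, so how reads were divided between them could change its value.

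The 8 complex I assembly factors were the least abundant class, with a median of 4.79 RPKM in si-NC beside 30 RPKM for the subunits. None passed in edgeR, with or without the block, or in DESeq2, and 0 had an unadjusted p under 0.05. *Ndufaf1*, which joins an early membrane intermediate, had a log2 fold change of 0.13 (95% confidence interval -0.14 to 0.40). *Ndufaf7*, an arginine methyltransferase, had -0.22 (-0.73 to 0.29). The other 6 had log2 fold changes below 0, between these values, and 4 of the 8 had an interval inside 1.5-fold.

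Complex II, succinate dehydrogenase, also belongs to the citric acid cycle and is encoded wholly in the nucleus. Its 4 subunits summed to 381.1 ± 13 CPM in si-NC and 373 ± 10.8 CPM in si-*Snhg18*, and each had a confidence interval inside 1.5-fold. *Sdha*, the flavoprotein, had a log2 fold change of 0.05 (adjusted p = 0.701). *Sdhc*, a membrane anchor, measured 67.3, 68.5 and 65.9 CPM against 54.6, 62.9 and 58.5 CPM, and the groups did not overlap. Its log2 fold change of -0.20 did not pass (adjusted p = 0.175, with the block 0.0646). By edgeR, with or without the block, and by DESeq2, 0 of the 4 were called, and 1 had an unadjusted p under 0.05.

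Complex III was the class with the highest median, at 0.13, and 8 of its 9 genes had a log2 fold change above 0. Its summed level was 538 ± 17.9 CPM in si-NC and 575.6 ± 21.8 CPM in si-*Snhg18*, and it was higher in si-*Snhg18* in each pair of same-numbered libraries (552.5 and 587.3, 518 and 550.4, 543.4 and 589.1 CPM), although si-*Snhg18* 2 lay below si-NC 1. This sum was not tested. The gene that stood against the others was *Uqcrc2*, a core subunit of the matrix arm. It measured 73.3, 71.0 and 73.3 CPM in si-NC and 59.9, 63.3 and 58.6 CPM in si-*Snhg18*, with no overlap, and a log2 fold change of -0.26 (SE 0.0652). It did not pass in edgeR without the block (adjusted p = 0.0657) and passed with it (0.0243) and in DESeq2 (0.0498). *Uqcr10*, a small subunit, measured 35.7, 32.4 and 34.6 CPM in si-NC and 42.7, 40.4 and 40.7 CPM in si-*Snhg18*, and was higher with the block (log2 fold change 0.27, adjusted p = 0.0336, without the block 0.0916). *Uqcrc2* shares 16.5% of its 75-base stretches with *Pdzd9*, a neighbour on the opposite strand with a mean of 8.17 reads. *Uqcrh*, the hinge protein and the most abundant of the class per kilobase, had a log2 fold change of 0.02 (adjusted p = 0.941).

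Complex V held the most abundant member. *Atp5b*, the catalytic beta subunit, measured 511 ± 20.5 RPKM in si-NC and 554.5 RPKM in si-*Snhg18* (log2 fold change 0.12, adjusted p = 0.382). The median over the 17 tested genes was 0.00, and the sums were 2438 ± 49.5 and 2530 ± 104 CPM, higher in si-*Snhg18* in each of the 3 pairs. By edgeR and DESeq2, 0 of 17 genes were called, with 2 at an unadjusted p under 0.05, both lower. *Atp5o*, the stalk subunit that confers oligomycin sensitivity, measured 9.57 ± 0.448 CPM in si-NC and 7.54 ± 0.654 CPM in si-*Snhg18* (SD, n = 3), with no overlap and a log2 fold change of -0.34 (adjusted p = 0.167, with the block 0.0888). Its reads can be shared with the second *Atp5o* entry. *Atp5j*, coupling factor 6 of the peripheral stalk, measured 94.1, 90.2 and 92.5 CPM in si-NC and 84.4, 76.7 and 78.0 CPM in si-*Snhg18* and was lower with the block (log2 fold change -0.21, adjusted p = 0.0331, without the block 0.112). *Atp5j* shares its start with *Gabpa*, which runs on the opposite strand and encodes the DNA-binding part of the GABP transcription factor, and their models overlap by 701 bases. *Gabpa* had a log2 fold change of -0.25 and passed with the block (adjusted p = 0.0266).

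**Figure D3:**
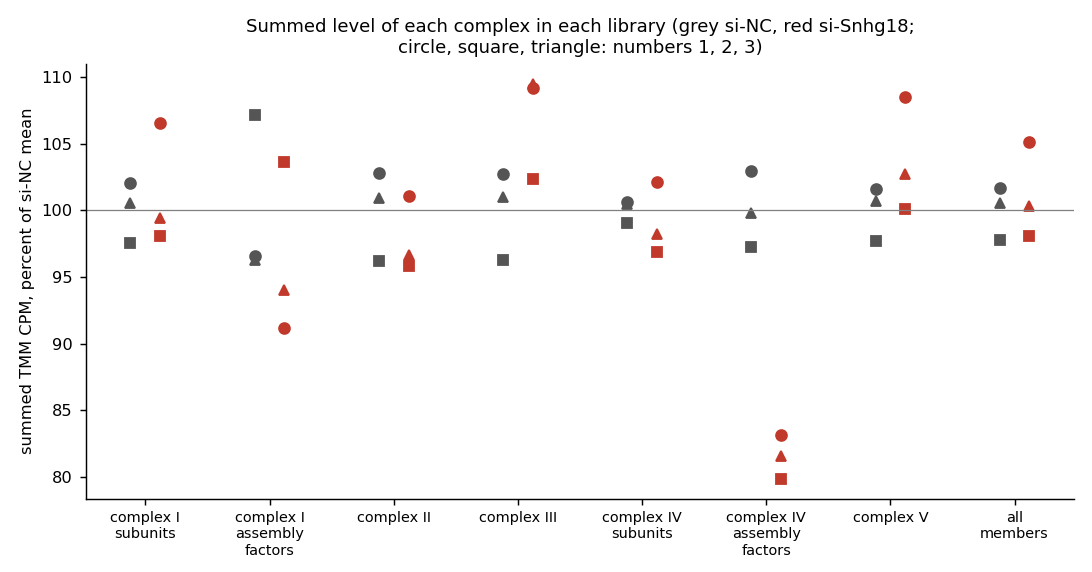
The summed TMM CPM of each class in each library is drawn as a percent of the si-NC mean of that class (grey si-NC, red si-*Snhg18*, shape for the replicate number; the axis does not start at 0). Complex IV assembly factors lie apart in the 3 si-*Snhg18* libraries, and without *Coa5* their sums were 170 CPM in si-NC and 169.1 CPM in si-*Snhg18*.

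**Figure D4:**
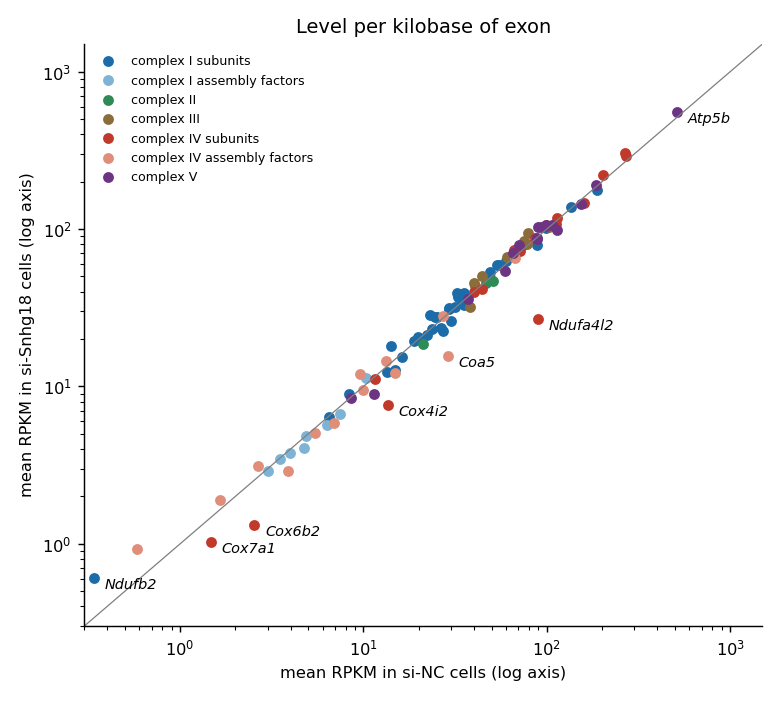
The mean level of each tested member in si-*Snhg18* cells is plotted against its mean level in si-NC cells, both in RPKM on log axes, coloured by class, with the line of equal levels. Members run from 0.338 RPKM (*Ndufb2*) to 511 RPKM (*Atp5b*) in si-NC and most lie on the line, and *Ndufa4l2* is below it at a level where its neighbours are not.

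The summed level of the 13 subunits encoded by the mitochondrial genome was higher in each si-*Snhg18* library than in any si-NC library. It was 11440, 12330 and 11600 CPM in si-NC 1 to 3 and 12890, 15230 and 12970 CPM in si-*Snhg18* 1 to 3. Of 11 tested genes, 9 had a log2 fold change above 0 and the median was 0.35, but edgeR called 0. There were 2 at an unadjusted p under 0.05 (24.9% of all tested genes) and 1 called by DESeq2 (13.7% of all genes). With the replicate block 6 passed (54.5%, beside 27.2% of all tested genes). These were *mt-Nd1*, *mt-Nd2*, *mt-Nd4*, *mt-Nd5* and *mt-Cytb*, which were higher, and *mt-Nd6*, which was lower and is the one subunit gene carried by the opposite strand of the mitochondrial DNA. The 5 higher genes lie on the same strand of this small genome, so their calls may not be independent of each other. *mt-Nd2*, a subunit of the complex I membrane arm, measured 827.9, 935.3 and 862.6 CPM in si-NC and 1085, 1273 and 1071 CPM in si-*Snhg18* (log2 fold change 0.39, adjusted p = 0.06, with the block 0.00328). *mt-Nd6* measured 88.0, 93.2 and 109.3 CPM against 81.9, 71.6 and 89.9 CPM, and the groups overlapped (adjusted p = 0.243, with the block 0.0339). The libraries were made from polyadenylated RNA, and nuclear copies of mitochondrial genes limit some of these values. Between 97.8 and 99.9% of the 75-base stretches of *mt-Co2*, *mt-Co3*, *mt-Atp6*, *mt-Nd3* and *mt-Nd4l*, and 61.5% of those of *mt-Nd4*, recur in other annotated genes, and the means of the first 5 were at most 12.7 CPM in either group. For *mt-Co1*, 39.8% recur. It was the largest part of the sum, with means of 5047.5 CPM in si-NC and 5522.4 CPM in si-*Snhg18*.

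**Figure D5:**
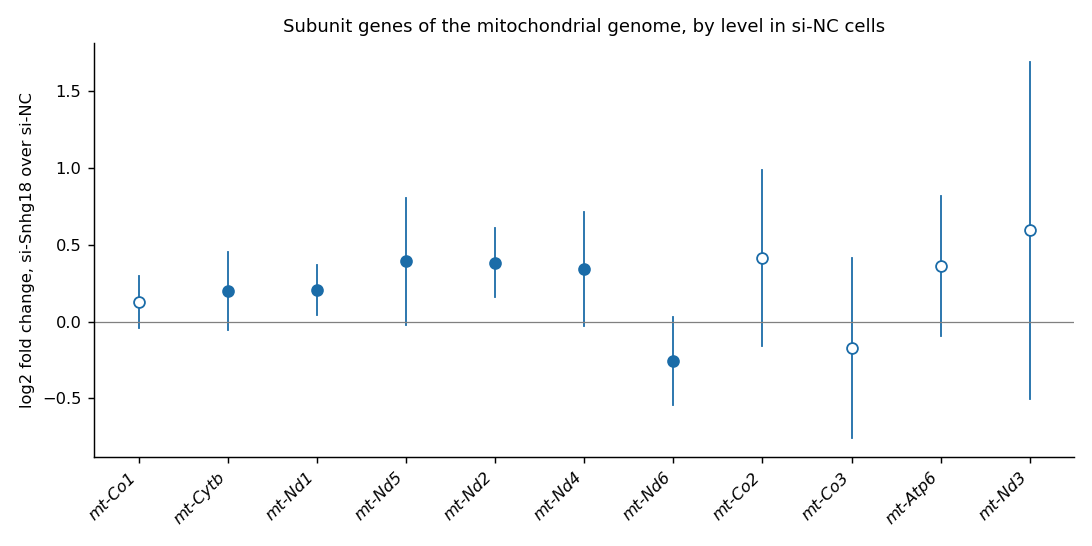
The log2 fold change (si-*Snhg18* over si-NC, with 95% confidence intervals from the fit without the block) is drawn for the 11 tested genes of the mitochondrial genome, ordered from the highest level in si-NC on the left. Filled points passed with the replicate block, where *mt-Nd6* is the one filled point below 0.

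Related genes outside the naming rule were read from lists compiled by hand. Of 33 tested assembly factors and carriers for all complexes, 1 passed (3.03%, beside 7.36% of all tested genes). With the block the same gene alone passed (3.03%, beside 27.2% of all tested genes). This was *Atpaf1*, a chaperone of the ATP synthase beta subunit, which measured 10.5, 11.4 and 8.39 CPM in si-NC and 4.83, 6.31 and 4.77 CPM in si-*Snhg18* (log2 fold change -0.93, SE 0.189, adjusted p = 0.0383). Its client *Atp5b* did not pass, as given above, and *Atpaf2*, the chaperone of the alpha subunit, had a log2 fold change of 0.26 (adjusted p = 0.186). The median of the list was -0.04. When 1 library was left out, *Atpaf1* and also *Esrra*, *Egln3* and *Adm*, described next, passed only without si-*Snhg18* 2, and their adjusted p reached 0.169, 0.11, 0.162 and 0.163.

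Of 22 tested regulators of mitochondrial biogenesis and mitochondrial DNA expression, 1 passed and was higher. This was *Esrra*, the nuclear receptor ERR alpha, which acts at many nuclear respiratory genes. It measured 30.6, 28.3 and 32.1 CPM in si-NC and 45.4, 44.2 and 47.5 CPM in si-*Snhg18* (log2 fold change 0.59, SE 0.0827, adjusted p = 0.0153). The call is 4.55% of the list, beside 7.36% of all tested genes. With the block 7 passed (31.8%, beside 27.2% of all tested genes), with *Esrra*, *Gabpb1* and *Prkaa1* higher and *Gabpa*, *Tfb2m*, *Polg* and *Prkaa2* lower. *Gabpa* and *Gabpb1* encode the partners of one factor and had log2 fold changes of -0.25 and 0.31. *Tfb2m*, a transcription factor of mitochondrial DNA, had -0.41 (adjusted p = 0.052, with the block 0.0173).

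Of 26 genes known to be induced by hypoxia-inducible factor, which include *Cox4i2*, 2 passed, in opposite directions. *Egln3*, an oxygen-sensing prolyl hydroxylase, was higher, at 121 ± 8.10 CPM in si-NC and 156.6 ± 3.51 CPM in si-*Snhg18* (log2 fold change 0.37, adjusted p = 0.0331, and 0.0552 with no filter on low counts). *Adm*, the vasodilator peptide adrenomedullin, was lower, at 498.5 ± 20.7 and 379.5 ± 23.2 CPM (log2 fold change -0.39, adjusted p = 0.031). The 2 calls are 7.69% of the list, beside 7.36% of all tested genes. With the block 8 passed (30.8%, beside 27.2% of all tested genes), with *Egln3*, *Egln1*, *Pfkfb3* and *Bnip3l* higher and *Adm*, *Slc2a3*, *Car9* and *Cox4i2* lower. The median log2 fold change of the list was 0.06, and its lowest value was -0.84, for *Slc2a3*. *Ndufa4l2*, at -1.73, is also induced by this factor and passed in both fits. It is not in the list, and the shares above leave it out.

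Of 21 matrix enzymes that feed the chain, edgeR called 0, with 3 at an unadjusted p under 0.05 and 3 called by DESeq2. Over all genes these shares were 24.9% at the unadjusted p and 13.7% in DESeq2. With the block 4 passed (19.0%, beside 27.2% of all tested genes). *Cs*, citrate synthase, was higher (log2 fold change 0.25, adjusted p = 0.0195), and *Idh3a* (-0.27, 0.0189), *Etfa* (-0.33, 0.0269) and *Gpd2* (-0.68, 0.00272) were lower. The *Etfa* protein carries electrons from fat oxidation towards ubiquinone, and that of *Gpd2* passes them to ubiquinone from glycerol phosphate.

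Start regions were compared in the RefSeq table of 300-base windows (250 bases before and 50 after each gene start, GRCm38.p6), which held 84 of the tested members and 10538 tested genes in all. The NRF1 motif (GCGCANGCG) was found on either strand in 22 members (26.2%), beside 13.8% of all these genes. The YY1 motif (AAGATGGC) was found in 11 members (13.1%), beside 4.68%, and the ETS motif (CCGGAAGT), which GABP reads, in 9 (10.7%), beside 8.3%. Of the 11 YY1 matches in members, 10 began at or after the gene start, and positions in the other genes were not counted. The core of the hypoxia response element (ACGTG or GCGTG) was found in 54 members (64.3%), beside 63.2%. Complex I subunits gave 32 of the 84 windows and 7 of the 11 with the YY1 motif, and complex IV assembly factors gave 10 of the 84 and 4 of the 9 with the ETS motif. GCGTG can lie inside an NRF1 match, as it does in the *Coa5* sequence above.

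Some members with these motifs are given as examples, and the part of the motifs in the changes was not tested. *Ndufa9*, lower with the block, and *Ndufb8*, higher with the block, both hold the YY1 motif just after their start, and *Cox15*, lower with the block, holds the ETS motif. *Cox6a1*, which did not pass, holds 3 NRF1 matches, of which 2 overlap each other. The windows are shown to set these beside the *Coa5* sequence. All lie on the minus strand of GRCm38.p6 and read from 5′ to 3′, with the motif in capitals. The *Ndufa9* bases are chr6:126849097-126849126, those of *Ndufb8* chr19:44555393-44555422, those of *Cox15* chr19:43752975-43753004 and those of *Cox6a1* chr5:115348959-115349208.
Ndufa9: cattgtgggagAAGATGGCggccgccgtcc
Ndufb8: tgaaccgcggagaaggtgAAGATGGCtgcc
Cox15: cgacgcctgacCCGGAAGTgcttgttcttt
Cox6a1: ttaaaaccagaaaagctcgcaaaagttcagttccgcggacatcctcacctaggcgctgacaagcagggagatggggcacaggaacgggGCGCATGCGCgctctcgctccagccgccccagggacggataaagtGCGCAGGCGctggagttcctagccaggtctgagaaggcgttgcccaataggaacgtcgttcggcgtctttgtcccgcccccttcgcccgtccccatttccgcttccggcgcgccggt
The table had no window for *Ndufa4l2*, *Cox4i2* or *Uqcrc2*.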

How the data were processed

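The RNA-seq libraries of control (si-NC, 3) and knockdown (si-*Snhg18*, 3) mPASMCs were used. The authors deposited the read count of each gene as whole numbers without normalization, with exon lengths and GRCm38 positions. Libraries were made with the TruSeq Stranded mRNA kit, and the submitters' processing notes name HISAT2 and mm10. The counting program, its strand setting and any filter on reads are not given in the sources used here, so overlapping genes could not be separated by strand. Groups and replicate numbers came from the labels.

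The groups were compared by edgeR 4.0.16 in R 4.3.3 (filterByExpr with a minimum count of 10, TMM, glmQLFit, glmQLFTest), and p-values were adjusted by Benjamini-Hochberg over 14531 tested genes. Members were called at an adjusted p under 0.05. Isoform ratios were compared by two-sided exact permutation tests. The common biological coefficient of variation was 0.218. RPKM used the deposited exon lengths, so levels and ranks between genes depend on those lengths. Stretches of 75 bases were matched to the annotated transcripts of GRCm38, and start regions came from RefSeq. Depth ranged from 18097718 to 25988746 reads, so that 3 reads correspond to 0.115 to 0.164 CPM.

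The pairing was taken from the replicate numbers of the labels, and nothing states that same-numbered libraries were prepared together. Deviations of same-numbered libraries from their group means correlated across genes at 0.41, 0.742 and 0.359 for numbers 1, 2 and 3. The correlations between libraries of different numbers were not computed, so these values cannot show that this pairing is the right one. The fit with the block, which rests on it, is given beside results where it changes a call.

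The genes named were *Snhg18*, *Ndufa4l2*, *Coa5*, members called in either fit, the member of highest level per kilobase and of largest change in each class, the isoform pairs, and listed genes called in either fit or among the 3 smallest p-values of their list, and some results under this rule are not reported here. Markers, neighbouring and overlapping genes and untested members were named besides, after values had been seen. The members and lists were chosen with earlier results of these data known. Alternatives were DESeq2 1.42.0, limma-voom (limma 3.58.1), RLE factors, no TMM, other filters and thresholds, exon length offsets, the replicate block and leaving out each library. The scripts were tested on simulated data.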

Additional observations from a re-analysis of the deposited data

How the results depend on the processing

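*Coa5* and *Ndufa4l2* kept their direction and an adjusted p under 0.05 in all 9 other fits of the 6 libraries. The number of members called was 4 with DESeq2 (all lower, beside 13.7% of all genes) and 10 with the replicate block (beside 27.2%). It was 12 with exon length offsets and the replicate block (6 higher, 6 lower), beside 27.4% of all genes. At an adjusted p under 0.1 it was 7, beside 13.5% of all genes. When 1 library was left out it was 0 to 6, where 6 of 105 came without si-*Snhg18* 2, beside 22.1% of all genes. Without si-NC 1, si-NC 3 or si-*Snhg18* 3, edgeR called 0 of all genes, with 8 to 10 members at an unadjusted p under 0.05. *Snhg18*, *Ndufa4l2* and *Coa5* then had adjusted p-values of up to 0.0703, 0.0889 and 0.07, and their log2 fold changes ranged from -1.14 to -1.06, from -1.95 to -1.57 and from -0.91 to -0.87 over all 6 fits with 1 library left out. In the same fits the median log2 fold change of complex IV assembly factors ranged from -0.121 to 0.0482. Members near 0 changed sign, with *Cox19* between -0.30 and 0.22, *Uqcrh* between -0.0362 and 0.111, *Ndufa4* between -0.0102 and 0.0787, *Atp5g1* between -0.0490 and 0.0130 and *Atp5g2* between -0.129 and 0.0688, as did the log2 ratios *Atp5g1*/*Atp5g2* (-0.11 to 0.14) and *Atp5g3*/*Atp5g2* (-0.228 to 0.0933). The cause of these shifts was not tested, beyond the smaller number of libraries. The replicate block changed no other call among the members than those given above, and exon length offsets with it added *Cox11*, *Cyc1* and *Uqcrc1* and lost *Ndufa9*. With 3 libraries a group, the exact tests of the isoform ratios could not reach a p under 0.1. Members under about 2 CPM, such as *Ndufb2*, *Cox7a1* and *Cox6b2*, rest on few reads.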

Other observations

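Several members share their place with a second gene model on the same strand. *Ndufb2*, at 0.338 RPKM in si-NC beside a class median of 30 RPKM, lies under Gm42420 over 4022 bases. *Ndufb8*, at 14.0 RPKM, lies under Gm20538 over 4260 bases. *Cox16*, the lowest complex IV assembly factor at 0.581 RPKM, lies under Gm20498, which had a mean of 0.667 reads. *Cox4i1* lies under *Galnt2l* over 5986 bases and was counted at 271 RPKM. Gm42420, Gm20538 and *Galnt2l* had no read. How reads in such overlaps were counted is not given in the sources used here, and its part in these levels was not tested.

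*Id1*, a helix-loop-helix inhibitor gene that ends 16763 bp before *Cox4i2* begins, had a log2 fold change of 0.97 (edgeR adjusted p = 0.0843, with the replicate block 0.000895), opposite in sign to the -0.82 of *Cox4i2*. *Bcl2l1*, 15631 bp away with a log2 fold change of 0.13, did not pass in either fit (adjusted p = 0.464 and 0.136).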
